A study of Drosophila melanogaster with 3 samples.

Results

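The X chromosome carried 545 of the 3123 binding sites that the authors retained for CG1647 in the fly embryo. The sites are the peaks with chrX as their chromosome in the optimal list thresholded by IDR (irreproducible discovery rate, which keeps the peaks whose ranks repeat between replicates) on the dm6 build. The list was selected on the pooled signal and its repeatability between replicates, so signal, retention and replicate support are described without a claim resting on them. The X sites are compared here with the 584, 670 and 735 retained peaks on 2L, 3L and 3R. The chromatin came from transgenic Drosophila melanogaster that stably express CG1647 with GFP (green fluorescent protein) fused to its C terminus, precipitated with an antibody against GFP. Whole embryos aged 0 to 24 h were used, with males and females pooled, and the chromatin was sonicated to fragments of 200 to 800 bp. There were 3 biological replicates of this 1 line and no second genotype, stage or treatment, so the spread below is that between these 3 samples. A fused transgene reports where the tagged protein was precipitated, and a mixture of all tissues and stages cannot say in which cells.

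CG1647 is a zinc-finger protein known mainly by its annotation number. The fly X is present once in males and as a pair in females, and in males the dosage compensation complex, seeded by the roX noncoding RNAs and binding GA-rich elements, raises the transcription of its genes. In a pool of both sexes there is less X DNA than autosomal DNA per embryo, and nothing in the files used here states whether the deposited values were adjusted for that.

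The DNA at the strongest X sites was AT-rich. The 101 bases centred on the summit (the position of highest signal in a peak) had a median GC content of 32.2% over the 20 X peaks of highest signal, with a range of 23.8 to 45.5%, against a median of 35.6% over all 545 X peaks. The 5 sequences below, from the RefSeq genome on dm6 and read on the plus strand, are those of the highest X peaks after the first, and none of them holds an untranslated or coding base. Capitals mark the longest run made of A and T alone.
ph-p, chrX:2137272-2137372: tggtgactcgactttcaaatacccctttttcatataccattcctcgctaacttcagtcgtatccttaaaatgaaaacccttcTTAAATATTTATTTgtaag
CG4004, chrX:12751382-12751482: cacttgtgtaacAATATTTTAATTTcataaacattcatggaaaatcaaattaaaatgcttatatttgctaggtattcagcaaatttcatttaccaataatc
CG32772, chrX:4910328-4910428: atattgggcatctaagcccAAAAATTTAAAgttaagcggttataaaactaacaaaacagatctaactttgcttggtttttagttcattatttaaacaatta
Tlk, chrX:3742174-3742274: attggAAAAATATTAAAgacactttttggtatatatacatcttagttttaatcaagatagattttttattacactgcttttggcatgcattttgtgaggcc
Raf, chrX:2297680-2297780: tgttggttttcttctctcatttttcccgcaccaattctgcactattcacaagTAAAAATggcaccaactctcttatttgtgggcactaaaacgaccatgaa
The longest such run had a median of 9.50 bases in the 20 highest and 9 in all X peaks. Across 5 equal groups of the X peaks, from highest to lowest signal, the median GC content of the 200 bp summit window went from 33.0 through 35.0, 36.0 and 37.0 to 38.0%, while the windows 500 bp to either side of the summits stayed between 41.0 and 44.0%. The 3 autosomal arms had the same order at both ends, from 33.0 or 34.0% in their highest group to between 38.0 and 40.0% in their lowest.

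The second set of sequences holds short words that were frequent at summits. Words of 8 bases were ranked on 2L, 3L and 3R by their share of summit windows against flanking windows, and 11 of the 20 leading words held G or C. None of the 20 highest X peaks had any of these 11 within the 101 bases, and 61 of all 545 did. The 4 X peaks below are the highest with such a word, shown in capitals with the rest in lower case, on the plus strand of dm6.
CG11151, chrX:13739527-13739627: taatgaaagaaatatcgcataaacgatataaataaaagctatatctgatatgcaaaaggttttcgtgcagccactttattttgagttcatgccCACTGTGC
schlank, chrX:6265525-6265625: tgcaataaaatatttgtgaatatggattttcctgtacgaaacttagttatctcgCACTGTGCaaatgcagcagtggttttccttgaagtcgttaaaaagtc
dnc, chrX:3255602-3255702: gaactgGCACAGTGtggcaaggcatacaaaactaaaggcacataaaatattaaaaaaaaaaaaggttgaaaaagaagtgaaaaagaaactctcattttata
Lsd-2, chrX:15075066-15075166: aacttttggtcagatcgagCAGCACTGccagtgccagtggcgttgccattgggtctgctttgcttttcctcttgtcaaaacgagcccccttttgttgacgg
In the 3 with the highest signal the word is CACTGTGC, read on either strand, and at Lsd-2 it is CAGCACTG. In 200 bp windows CACTGTGC was present at 39 X summits (7.16%, exact binomial 95% interval 5.14 to 9.65), in 1.83% of windows 500 bp away and in 0.933% of all 200 bp windows of the X. On 2L, 3L and 3R the share was 4.62, 4.63 and 3.54%. In the replicates' own lists of best peaks the share on the X was 6.24, 7.94 and 7.07%, against at most 4.86% on any of the 3 autosomal arms. Any of the 11 words was present in 24.0% of the 200 bp X summit windows, against 27.6, 26.6 and 25.2% on 2L, 3L and 3R. Each of the other leading words had a lower share on the X than on 2L, 3L and 3R together, as did CAGCCCTG (1.10 against 3.07%). The ranking of words used those arms and not the X. CACTGTGC was singled out after its values were seen, and a match is a description, not a binding site.

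Known motifs were counted in the same way. The DRE, TATCGATA, the element bound by the promoter factor DREF, lay within 23 X summit windows (4.22%), against 0.703% of all X windows, and within 4.79, 3.58 and 5.58% of the summit windows of 2L, 3L and 3R. Of these 23, 20 were at promoters, and none was in the 20% of X peaks with the highest signal. Core promoter motif 7, CANCNCTA, was in 10.8% of X summits and 4.99% of all X windows, and in 10.8, 13.4 and 14.97% of summits on the other arms. The X minus their mean was -2.24 points, and -1.30, -2.97 and -2.39 in the replicates' own lists (-2.22 ± 0.852). At promoter summits alone motif 7 was in 17.4% on the X and in 16.4, 21.1 and 21.5% on 2L, 3L and 3R. At all other summits it was in 4.88% on the X and in 4.14, 3.73 and 6.11%. The CA repeat CACACACA was in 4.22% of X summits, 10.1% of the flanking windows and 5.78% of all X windows, and in 4.11, 4.18 and 3.13% of summits on the other arms. The GA repeat GAGAGAGA, the kind of sequence in which the dosage compensation complex binds, was in 2.75% of X summits, 3.49% of the flanks and 1.53% of all X windows. On the other arms it was in 1.71, 1.34 and 1.77% of summits, and in 1.02, 1.08 and 1.03% of all windows. The X minus their mean at summits was 1.14 points, and 0.351, 0.885 and 1.28 in the replicates (0.839 ± 0.467). All motifs were searched on both strands, and DRE matches overlap those of the word ATCGATAG.

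The X held about its share of the retained peaks. It had 23.1 peaks per Mb, against 24.8, 23.8 and 22.9 on 2L, 3L and 3R. Its 545 peaks were 21.5% of the peaks on these 4 arms, beside 19.9% of their protein-coding genes and 22.0% of their length. Taking each replicate's own best peaks, meaning the 3123 of highest signal in its list, the X held 21.1, 22.7 and 19.3% (21.02 ± 1.70, SD, n = 3). The difference from the X share of genes was 1.08 ± 1.70 percentage points and positive in 2 of 3 replicates (exact two-sided sign-flip permutation test, p = 0.5, adjusted p = 0.5). This exact test over 3 replicates cannot go below p = 0.25. It was computed for 9 comparisons, and p-values are given with Benjamini-Hochberg adjustment over those 9. The ratio of X peaks per Mb to the mean of the other arms was 0.970 in the retained list. In the replicates' own lists it was 0.948, 1.04 and 0.844 (0.943 ± 0.0964, exact test, p = 0.5, adjusted p = 0.5). Over retained peaks found in both replicate 1 and replicate 2 it was 1.08, above the value of either replicate's own list.

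Before the threshold the X was thinner. The deposited pooled list of candidates, which holds peaks together with background regions, had 121 per Mb on the X against 152, 150 and 147 on 2L, 3L and 3R, a ratio of 0.813 to their mean. The replicates' candidate lists gave ratios of 0.823, 0.840 and 0.838 (0.834 ± 0.00927, SD, n = 3), all below 1. Of the 2860 X candidates, 606 (21.2%, 19.7 to 22.7) overlapped a retained peak, where 18.6% of all candidates did, and 18.7, 18.2 and 18.2% did on the other arms. Retention is what chose the sites, so these shares are a description. The lower X copy number in a mixed-sex pool cannot be told apart from other features of the X here.

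Signal on the X was close to that elsewhere. The signal value is the enrichment score that the authors deposited for each peak, in units not given in the sources used here. On the X its median was 196, with extremes of 126 and 2622, and the medians were 193, 180 and 192 on 2L, 3L and 3R. The median X peak stood at percentile 52.8 of the whole list, against 51.7, 44.9 and 51.4. Of the 25 highest peaks of the genome 4 were on the X, and of the 100 highest 17. In the replicates' own lists the X median percentile exceeded the mean of the other arms by 0.117, 1.06 and 5.19 points (2.12 ± 2.70, exact test, p = 0.25, adjusted p = 0.321), a mean smaller than its SD. The difference turned to -5.89 points in the 1561 peaks of highest signal, and to -4.20 points over peaks found in replicates 1 and 2, without replicate 3. At the threshold, the lowest retained X peaks were at Mec2 (126.315), Drak (126.296) and REG (126.263), and the highest X candidates left out were at CG5321 (126.225), Tak1 (126.129) and Rbf (126.128).

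The 20 strongest X sites lay at 19 different genes. By location 9 were at promoters, 8 in introns, 2 in noncoding exons and 1 between genes, and 11 lay within 5.89 Mb of the tip. The highest, at chrX:2703698-2704071, had its summit 28 bp upstream of the start site of Ugalt (FBgn0024994), which encodes a UDP-galactose transporter. Its pooled signal was 2622, second in the genome, and its signals in replicates 1, 2 and 3 were 782, 1163 and 693. Next came ph-p (FBgn0004861), which encodes polyhomeotic proximal, a subunit of Polycomb repressive complex 1. Its summit lay within the gene, 467 bp upstream of the nearest of its start sites. The pooled signal was 1835, and the replicate signals were 510, 879 and 473. Both sites had their highest value in replicate 2 and stood in the best 10 of every replicate.

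A pair of neighbouring peaks had pooled signals of 1463 and 957. Each lay over a noncoding exon, 5115 and 6068 bp from the nearest protein-coding start site, that of CG4004. The first summit lay 435 bp upstream of the noncoding gene lncRNA:CR44619, and the second lay within that gene. Their replicate signals were 407, 628 and 431 for the first and 230, 461 and 263 for the second. Intronic summits came next at CG32772 (1441, and 381, 690 and 375 in the replicates), at Tlk, which encodes Tousled-like kinase (1068, and 284, 465 and 324), and at Raf, the kinase below Ras in receptor tyrosine kinase signalling (960, and 281, 435 and 245). Replicate 2 again gave the highest value at each of these sites, as it did at 19 of the 20. Its median signal at retained peaks was also the highest of the 3 replicates on every arm. On the X that median was 81.9, against 56.9 in replicate 1 and 61.1 in replicate 3.

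The other 13 of the 20 had pooled signals between 648 and 912. Atf3, a bZIP transcription factor gene, led the remaining promoters at 912, with 246, 421 and 246 in the replicates. The promoter sites also included MFS10, a transporter of the major facilitator family, CG17896, Ptpmeg2, a protein tyrosine phosphatase, and CG3009. They included dnc, which encodes the cAMP phosphodiesterase needed for learning, and Gapdh2, a glycolytic enzyme. Gapdh2 was the exception among the replicates, with 157, 223 and 276, highest in replicate 3. The intronic sites were at CG3726, NFAT, norpA, which encodes the phospholipase C of phototransduction, LPCAT, an acyltransferase of phospholipid remodelling, and CG34417. The intergenic site was 1324 bp upstream of CG3149. All 20 were among the best peaks of all 3 replicates.

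**Figure D1:**
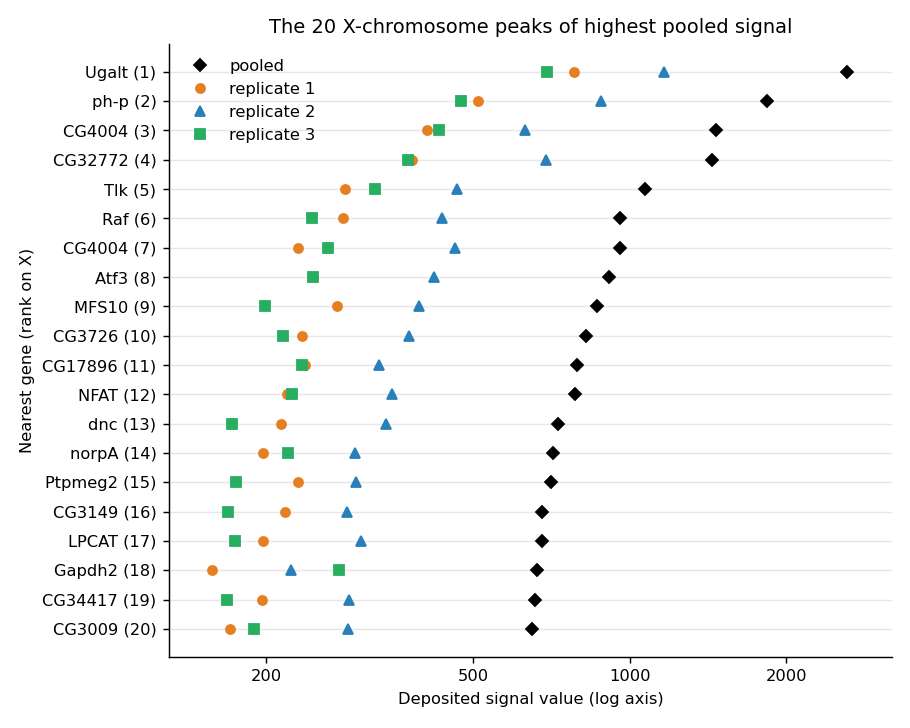
Deposited signal (log axis) of the 20 X peaks of highest pooled signal, named by their nearest gene, as the pooled value (diamond) and in replicates 1, 2 and 3 (circle, triangle, square). Replicate 2 is the highest of the 3 at 19 of the 20, the exception being Gapdh2, and no replicate value falls below 157.

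The promoter share of X summits was below that of each other arm and the intron share above it, in the retained list and in all 3 replicates. A promoter summit here is one within 500 bp of the transcription start site (TSS) of a protein-coding gene. On the X these were 258 (47.3%, 43.1 to 51.6), against 54.5, 56.0 and 57.7% on 2L, 3L and 3R. In the replicates' own lists the X had 47.6, 44.9 and 48.4% (47.0 ± 1.85), below each of the other arms in each replicate. The X minus the mean of the other arms was -5.39, -10.7 and -8.84 percentage points (-8.33 ± 2.71, n = 3), negative in 3 of 3 replicates (exact test, p = 0.25, the lowest the test allows, adjusted p = 0.321). Over retained peaks found in both remaining replicates when replicate 1 was left out, the difference was -13.7 points. Promoter regions of this width took up 11.0% of X bases, against 12.1, 10.6 and 11.3%.

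Introns held 232 X summits (42.6%, 38.4 to 46.8), against 28.1, 25.2 and 31.0%. The replicates gave 41.4, 45.8 and 42.2% for the X (43.1 ± 2.33) and between 24.1 and 30.7% for the other arms, with no overlap. The difference was 15.5 ± 2.71 points and positive in 3 of 3 (exact test, p = 0.25, adjusted p = 0.321). Introns outside promoters made up 43.7% of X bases, and 37.0, 37.4 and 43.5% of the bases of 2L, 3L and 3R. Summits between genes were the reverse, with 39 on the X (7.16%) against 13.9, 15.1 and 9.12%, and a replicate difference of -5.89 ± 1.59 points, negative in 3 of 3 (exact test, p = 0.25, adjusted p = 0.321). No X summit of 545 fell in a coding exon outside promoters, although such exons are 13.4% of the X, and the other arms had 1, 5 and 0. A count of 0 allows a share of up to 0.550% by the limit of 3 counts and 0.675% by the exact interval.

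**Figure D2:**
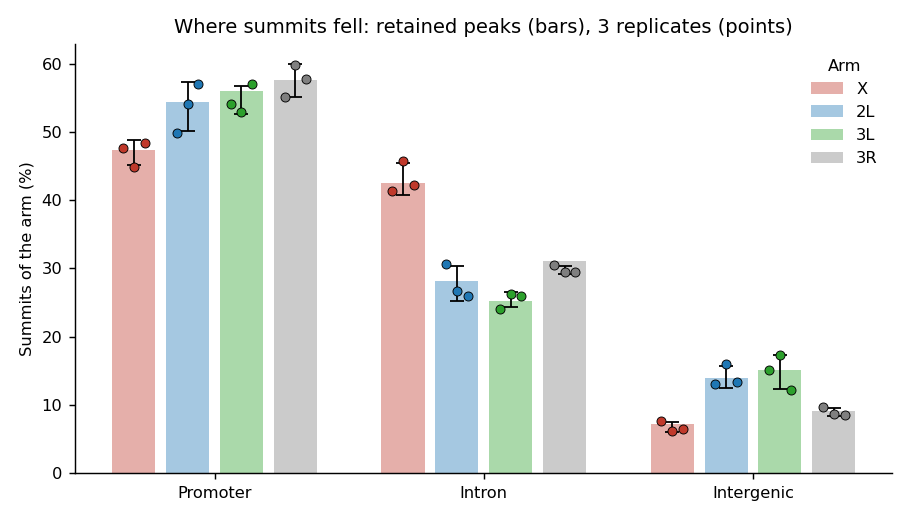
Share of summits (percent) at promoters, in introns and between genes for the X, 2L, 3L and 3R. Bars are the retained peaks, points the best peaks of replicates 1, 2 and 3 from left to right, and black bars their mean ± SD. The X points lie lowest at promoters and between genes and highest in introns, where they run from 41.4 to 45.8%.

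The promoter gap was wider among the strongest peaks than among the weakest in each of the 3 replicates. In the 20% of each arm's peaks with the highest signal, promoters held 49 of 109 X summits (44.95%) and 65.5, 59.7 and 68.0% of those on 2L, 3L and 3R. In the 20% with the lowest signal the share was 52.3% on the X and 44.9 and 47.9% on 3R and 2L, with 3L between the X and 2L. In the replicates' own lists, the X minus the mean of the other arms was -20.8, -20.4 and -15.2 points in the highest 20% (-18.8 ± 3.10) and -3.84, -8.34 and 4.43 in the lowest (-2.58 ± 6.48). Intronic peaks had a median signal of 198 on the X, close to the 196 of X promoter peaks, and of 189, 185 and 176 on the other arms.

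By distance, X summits lay farther from start sites at the median, while the share of remote summits differed little. The median X summit was 626 bp from a protein-coding TSS, against 358, 332 and 241 bp. Summits more than 5 kb away numbered 88 on the X (16.1%, 13.2 to 19.5), against 15.8, 18.1 and 14.4%, a difference of 0.0685 points. The replicates gave 1.35, 0.336 and 1.55 points (1.08 ± 0.652, exact test, p = 0.25, adjusted p = 0.321). The sign turned with the distance, to 2.92 points at 2 kb and -0.404 at 10 kb. X promoter summits lay upstream of the start site in 209 of 258 cases (81.0%), with a median offset of -104 bp.

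The share of genes with a site at their promoter was lowest on the X in the retained list and in replicates 2 and 3. In replicate 1 it was 13.4% on the X and 13.1% on 2L. Of 2196 protein-coding genes on the X, 311 (14.2%, 12.7 to 15.7) had a retained summit within 500 bp of a TSS, where 16.2% of all genes did, and 15.5, 18.2 and 17.3% did on 2L, 3L and 3R. The replicate difference was -1.62, -2.72 and -4.45 points (-2.93 ± 1.43), negative in 3 of 3 (exact test, p = 0.25, adjusted p = 0.321). Counted only among genes with a pooled candidate at a TSS, 31.7% of X genes were bound against 37.6, 39.5 and 39.0%, a difference of -6.97 points. Over retained peaks found in both replicate 1 and replicate 2, the difference over all genes was -1.55 points. Genes were then split by whether they start close to another gene. Of the 626 X genes with a TSS within 500 bp of another gene's TSS, 160 were bound (25.6%), against 29.4, 36.1 and 35.1% of such genes on the other arms. The replicates gave 22.8, 26.2 and 22.7% on the X and differences from the other arms of -4.59, -8.80 and -11.0 points (-8.13 ± 3.25). Of the 1570 other X genes 151 were bound (9.62%), against 9.07, 10.3 and 8.79%, and the replicate difference was 0.147 ± 0.843 points. The difference was more negative for genes with a close neighbour in each of the 3 replicates, and this contrast between the gene classes was not tested. Genes with a close neighbour were 28.5% of X genes and 31.9, 30.6 and 32.5% of the genes elsewhere.

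**Figure D3:**
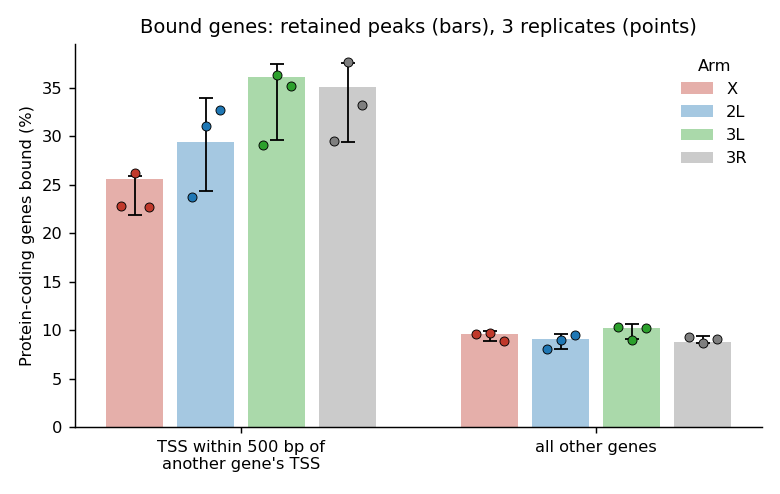
Protein-coding genes bound (percent), split into genes whose TSS lies within 500 bp of another gene's TSS and all other genes, on the X, 2L, 3L and 3R. Bars are the retained peaks, points replicates 1, 2 and 3 from left to right, and black bars their mean ± SD. In the left group the X bar is the lowest at 25.6%, and in the right group the 4 arms lie between 8.79 and 10.3%.

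Counts by summit are given beside those by gene. Of the 258 X promoter summits, 79 (30.6%) had start sites of 2 or more genes within 500 bp, against 41.5, 40.8 and 45.8%. The replicate difference was -11.4 ± 3.18 points and negative in 3 of 3 (exact test, p = 0.25, adjusted p = 0.321). It was -23.5 points in the 1561 peaks of highest signal and -5.56 points with 200 bp in place of 500.

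Sites were denser toward the tip of the X than toward its centromere, and the other arms also thinned toward the centromere. Of 20 equal parts of each arm, the part next to the centromere held 3 peaks on the X and 0 on 2L, 3L and 3R. The part beside it held 9 on the X and 12, 0 and 0 on those arms. The 4 equal segments of the chromosome, counted from the tip, held 152, 183, 130 and 80 peaks, and 531, 596, 618 and 451 genes. In the replicates' own lists the last segment held 15.1, 14.0 and 14.3% of the X peaks (14.5 ± 0.580) and the second 33.3, 34.7 and 33.5% (33.8 ± 0.782). The share of bound genes was 16.0 and 16.4% in the first pair of segments and 11.49 and 12.64% in the last pair. Over the 23 full bins of 1 Mb, peaks and genes per bin had a Spearman correlation of 0.579 and a Pearson correlation of 0.541, as a description, since bins of 1 chromosome share their libraries. On 2L, 3L and 3R the Spearman correlation was 0.422, 0.715 and 0.542.

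The richest bin, from 2 to 3 Mb, held 43 peaks among 126 genes. Its bound genes of highest signal were Ugalt and ph-p, then moody (516), which encodes a receptor of the glial blood-brain barrier, sgg (473), the fly GSK3 kinase of Wnt signalling, Syx4 (368), a syntaxin, and egh (356), a glycosyltransferase of glycolipids. The next bin, from 3 to 4 Mb, had 33 peaks and only 55 genes, with 10 of its peaks at promoters. The first X summit lay at position 493990, 495 bp from CG17896, and the last at 22837534, near fog. The longest stretch without a site, 855 kb between summits near GCS2alpha and CG14615, contained 30 genes and 6 candidates. Consecutive X summits had a median spacing of 18.0 kb, against 14.4, 15.6 and 15.8 kb.

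**Figure D4:**
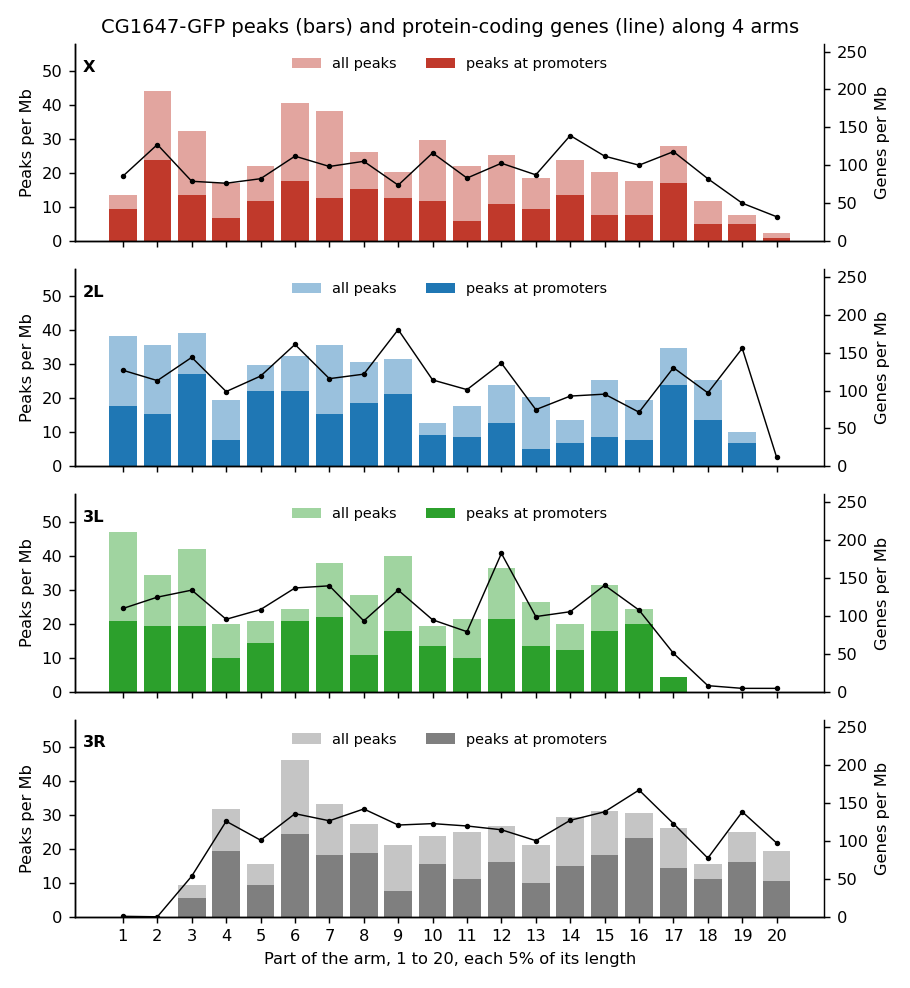
Retained peaks per Mb (left axis; pale bars all peaks, dark bars peaks at promoters) and protein-coding genes per Mb (right axis; black line) in 20 equal parts of X, 2L, 3L and 3R. The centromere is at the right end of X, 2L and 3L and at the left end of 3R; on the X the bars are tallest in parts 2, 6 and 7 and shortest in part 20.

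Some X genes carried several sites. There were 72 groups of summits spaced by less than 2 kb, together holding 160 of the 545 peaks, and the remaining 385 stood alone. Of the gaps between consecutive X summits 16.2% were under 2 kb, against 16.0, 12.7 and 11.3% on 2L, 3L and 3R. Genes with 3 or more intronic summits numbered 15 on the X and 14, 12 and 14 on those arms. The largest group, at Raf, had 6 summits over 7810 bp, 5 of them among the best peaks of all 3 replicates. CHES-1-like, a forkhead factor gene, and Moe, which encodes moesin, a linker of membrane and actin, had groups of 4, and ph-p one of 3. Counting a summit for every gene that spans it, CG1677 and CHES-1-like held 9 intronic summits each, and Raf and kirre held 7 each. The count of kirre, a cell adhesion gene of myoblast fusion, includes 2 summits in introns of CG32795, which lies inside it. CG1677 encloses CBP and Dok, each with 1 intronic summit that was counted for both genes. CG1677 spans 125 kb and kirre 394 kb, whereas CHES-1-like spans 27.05 kb. In all, 144 X genes spanned an intronic summit, with nested genes and the genes that enclose them both counted. Their median gene length was 22808 bp, against 2521 bp for all protein-coding genes of the X. The other arms showed the same contrast. On 2L, 3L and 3R these medians were 17481.5, 20728 and 19411 bp, against 1986, 2130 and 2124 bp.

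In the smaller location classes the highest X summits were few and moderate. Untranslated leaders held 5, led by baz (470), Raf (340) and eas (225). Untranslated tails held 6, led by CG7872 (406), pigs (327) and stas (263). The third noncoding-exon summit by signal was nearest to CG15452 (298), and after CG3149 the intergenic summits were led by those near Act5C (441) and Atf3 (380). Annotated transposable elements covered 5.50% of the X and held 1 summit.

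Replicate support followed signal. Of the 545 X peaks, 335 (61.5%, 57.2 to 65.6) were among the best peaks of all 3 replicates, where 58.4% of all retained peaks were, and 58.05, 53.3 and 58.5% were on 2L, 3L and 3R. Another 143 were found in 2 replicates, 64 in 1 and 3 in none, and 544 had at least a candidate in all 3. Because the retained list was made from the same samples, these shares are a description. Replicates 1, 2 and 3 contained 81.5, 90.5 and 76.7% of the X peaks (82.9 ± 6.99), against 82.5 ± 4.86, 80.3 ± 3.30 and 81.3 ± 2.28% for 2L, 3L and 3R. Replicate 2 was above and replicate 3 below the other arms for the X, by 5.90 and -4.97 points, and replicate 3 had 481 X peaks among its best where replicates 1 and 2 had 529 and 579. Of the 64 X peaks found in a single replicate, 42 were in replicate 2, 13 in replicate 1 and 9 in replicate 3.

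With the whole list cut into 5 equal groups by signal, all 104 X peaks of the highest group were in the best peaks of all 3 replicates, 96.0% in group 2, 73.9% in group 3, 24.5% in group 4 and 2.88% in the lowest. By location, 65.5% of intronic X peaks were found in all 3 replicates, against 50.6, 52.1 and 51.8% of intronic peaks elsewhere. For promoter peaks the shares were 59.3% on the X and 61.3, 56.3 and 62.5%. Signals at X peaks ranked alike in the replicates, with Spearman correlations across peaks of 0.677, 0.654 and 0.688 for the 3 pairs. Peaks of 1 library are not replicates of each other, and these correlations have no p-value.

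**Figure D5:**
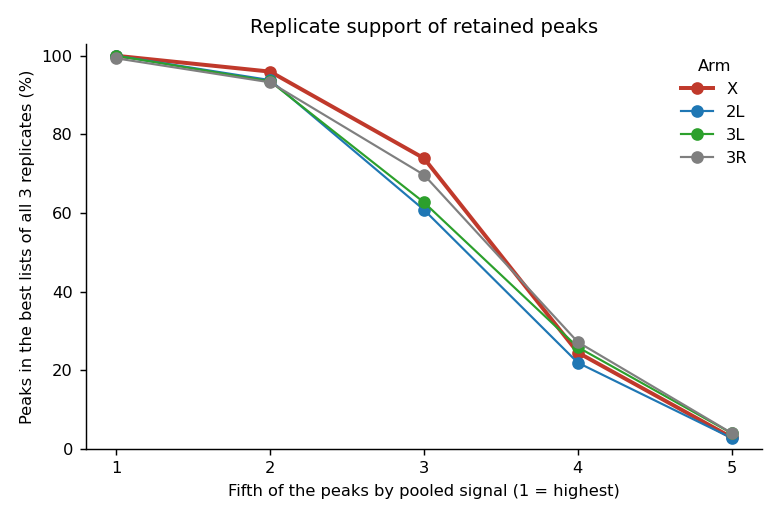
Share of retained peaks (percent) found among the best 3123 peaks of all 3 replicates, by group of the whole list, cut into 5 equal groups in order of pooled signal (1 is the highest), for the X, 2L, 3L and 3R. All 4 lines fall from near 100% to below 5%, and the X is the highest in group 3, at 73.9%.

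By gene group, the counts of bound promoters are read against the 14.2% of all X genes that were bound. Of the 15 genes for cytoplasmic ribosomal proteins on the X 10 were bound, against 34 of 56 on 2L, 3L and 3R. The highest was RpL22, with 248 pooled and 68.1, 85.2 and 94.5 in the replicates, followed by RpS28b (245), RpL17 (221), RpS15Aa (218), RpS5a (199) and RpS19a (197). All 6 summits lay between 3 and 105 bp from a start site. Among the unbound, RpL35 had its nearest summit 0.545 kb away, just past the limit, and RpL7A, RpS14a and RpS14b had none within 3 kb. Mitochondrial ribosomal protein genes were listed by their mRp symbols. None of the 11 so named on the X was bound, against 15 of 50 elsewhere. The list misses tko, the X gene for mitochondrial ribosomal protein S12, named here after its values were seen, which was bound at 173 pooled and 66.2, 51.4 and 49.2 in the replicates. Of the 11, the nearest sites of mRpL14, mRpL16, mRpL22 and mRpL3 were 10.5 to 27.03 kb away. None of 7 translation initiation factor genes was bound, against 6 of 27, and none of 6 genes for general transcription factors, Mediator or RNA polymerase II, against 18 of 46. Of the latter, MED18, MED22, Polr2A and Taf8 had no summit within 3 kb. Beside eIF2Bbeta the Ugalt summit lay 0.691 kb away. The nearest sites of eIF2Bepsilon, eIF2alpha and eIF3g1 were 14.96, 42.8 and 1.39 kb away.

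For the genes of X dosage and sex determination the counts were 0 of 3 and 1 of 6. Neither lncRNA:roX1 nor lncRNA:roX2, the noncoding RNAs of the dosage compensation complex, had a summit within 500 bp of its start site, and neither did mof, which encodes its histone acetyltransferase. The nearest summits were 5.96, 1.48 and 2.77 kb from the start sites. The summit nearest to lncRNA:roX2 lay 110 bp past the 3′ end of the gene, with a signal of 245. This same summit was the promoter site of nod, 230 bp from its start site. The summits nearest to lncRNA:roX1 and mof were also promoter sites of other genes. They lay within 500 bp of the start sites of CG2930 and yin, and of Usp30 and CG16721. Of 6 X genes that count the X or act on Sex-lethal, only Sxl itself, the switch of female development, was bound, at 155 pooled and 30.4, 81.9 and 48.0 in the replicates, and it was among the best peaks of 2 replicates. The X signal elements run, sc and sisA and the splicing factor gene snf were not bound, with their nearest sites 35.5, 97.9, 4.04 and 13.5 kb away.

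For chromatin genes the X holds few members. Both X genes of the Polycomb group list, ph-p and its tandem copy ph-d (160, in 2 replicates), had a site, against 4 of 11 elsewhere. Because ph-p and ph-d arose by duplication and are closely similar, reads could be shared between them in a way the deposited files do not show. Of 4 trithorax group genes 2 were bound, fs(1)h (296), which encodes the bromodomain protein Fs(1)h, and Bap60 (237), a subunit of the BAP remodelling complexes, whereas Bap111 and trr were not.

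Among signalling genes, N, the Notch receptor (188), csw, a phosphatase of receptor tyrosine kinase signalling (157), and sgg were bound. Not bound were dx of the Notch pathway, and arm, dsh and fu of Wnt and Hedgehog signalling. Of 8 X genes in the Ras and JAK list csw alone had a promoter site, while Raf had 8 summits within the gene and its nearest 844 bp from a start site, and Dsor1, hop and sev had none within. In the cell cycle list fzr (145) was bound of 4, and Cdk7, CycD and Rbf were not.

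The developmental and tissue gene lists of the X had shares of bound genes between 0 and 15.8%. Of 19 neural genes 3 were, dnc (728), elav (563), which encodes the neuronal RNA-binding protein, and rut (133), the adenylyl cyclase of learning. Appl, Nmdar2, Nrg and Sh had no promoter site. Of 19 embryonic patterning genes Sxl was the 1 bound, and Bx, arm, bi and brk were not, although Bx and bi each had 1 summit inside the gene. Of 20 classic visible markers cm (210), car (145) and ec (128) were bound, and B-H1, B-H2, ct and cv were not. None of 8 X genes for yolk and eggshell proteins, which are made in adult females, was bound, and none of the 8, Cp36, Cp38, Cp7Fa and Cp7Fb among them, had even a candidate at a promoter. Among noncoding genes of the X, a summit lay within 500 bp of the start of 15 of 240 long noncoding RNAs (6.25%, against 3.58% on 2L, 3L and 3R together) and 5 of 70 antisense RNAs (7.14%, against 5.86%). The same held for 2 of 58 microRNAs (3.45%, against 2.07%) and 1 of 24 tRNAs (4.17%, against 2.98%). None of 31 snoRNAs, 74 pseudogenes or 2 snRNAs had one, against 2.84, 2.19 and 26.7%.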

How the data were processed

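Peaks came from ChIP-seq of CG1647-GFP in 3 biological replicates. Per the file names and columns, the authors deposited narrowPeak lists for dm6 and dm3: candidates for each replicate (30000 in replicates 1 and 3, 17977 in replicate 2) and for the pool, and IDR-thresholded peaks. The signal of each peak (column 7) is the value the authors deposited. The aligner, peak caller, their versions, the IDR threshold, the control and read numbers were not found in the labels or headers used here (not given in the sources), so depth is unknown. Intervals are exact (Clopper-Pearson, 95%) and cover counting error only. With 0 of 545 the limit allows 3 counts.

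Candidates and replicate peaks were matched to retained peaks by an overlap of at least 1 bp. Genes and start sites were taken from Ensembl release 115 (FlyBase genes), sequences from the RefSeq release 6 genome, which is dm6. Chromosome lengths and names were checked against the peaks. Locations were assigned to summits in the order promoter (500 bp), untranslated, coding, noncoding exon, intron, intergenic. Each replicate was represented by its 3123 peaks of highest signal, and the 3 values gave mean, SD and an exact sign-flip test. The promoter share and the matching of overlapping peaks were tested on simulated peaks. The sign-flip test, the joining of peaks and the motif search were checked on small examples, and the other measures were not tested in this way. Python 3.11.15, numpy 2.4.6 and scipy 1.17.1 were used.

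The sites, gene lists, motifs and rules were chosen with earlier results of these data known, and the comparisons of introns, intergenic sites, shared promoters, signal groups and 8-base words were added after seeing the data. Named genes are those nearest to the 20 highest X peaks, the 3 highest in each other location class, those at the threshold, the ends, the longest gap and the richest 1 Mb, and up to 6 bound and 4 unbound members of each of 16 lists; genes in groups of summits and with many intronic summits, and those whose sequence is shown for a word, were named after their values were seen. The neighbours of the dosage compensation genes and lncRNA:CR44619 were also named after their values were seen. Of the symbols listed, 4 were not matched in the annotation and are not analysed here. Alternatives tried were a shorter list, leaving out each replicate, joined peaks, the dm3 list and other distances.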

Additional observations from a re-analysis of the deposited data

How the results depend on the processing

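Of 72 recomputed values of the 11 comparisons, 46 moved by less than 1 SD of the replicates, 19 moved further and 7 changed sign. With the 1561 peaks of highest signal, the X to autosome ratio of peaks per Mb was 1.03, the signal percentile difference -5.89, the difference in summits over 5 kb 1.55, that in introns 17.7 and that in promoter summits near 2 or more genes -23.5. The last was -5.56 with start sites within 200 bp. Summits past the distance limit differed by -0.174 with overlapping peaks joined, by 2.92 at 2 kb and by -0.404 at 10 kb. Bound genes differed by -6.97 when counted among genes with a candidate. The cause of these shifts was not tested.

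Leaving out 1 replicate restricted the retained list to peaks found among the best peaks of both others. Only the share of peaks found in all remaining replicates used the whole list. These runs gave ranges of 21.7 to 23.4% for the X share, 0.979 to 1.08 for the ratio per Mb, -13.7 to -11.5 for promoters, 1.01 to 2.64 for summits over 5 kb, -4.20 to 0.0767 for the percentile, 17.9 to 19.2 for introns, -16.9 to -14.5 for promoters of 2 or more genes, -3.03 to -1.55 for bound genes and 0.590 to 7.65 for peaks found in all remaining replicates. The value without replicate 3 was an extreme of each of these ranges but those for introns and promoters of 2 or more genes, and also of that for intergenic summits, -6.72 to -5.47. The unrestricted list lay inside the ranges for bound genes and intergenic summits, and outside those for the other measures taken on the restricted list. The differences in promoter, intron, intergenic and bound-gene shares kept their sign in each alternative run.

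Among 22 recomputed motif differences between the X and the other arms, 5 changed sign. In 400 bp windows these were the DRE (from -0.431 to 0.644 points), the E-box CAGGTG (from -0.219 to 0.0899) and GAGAG (from -0.244 to 4.73), and in 100 bp windows the CA repeat (from 0.414 to -0.0919) and the CTCF core (from -0.339 to 0.311). Over all summits, motif 7 stayed lower and the GA repeat higher on the X than the mean of the other arms in both windows. Depth is unknown, no control data were used, and 3 replicates of 1 group limit what a difference between arms can show. No paired analysis between groups was possible because there is 1 group; arms were compared within each replicate.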
